A study of Mus musculus with 6 samples.

Results

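Glycogen is the branched store of glucose that skeletal muscle draws on during contraction, and the transcripts of 9 genes that build it, break it down or regulate both steps were described in gastrocnemius muscle of HrasG12V and wild-type (WT) mice. The genes were *Phka1*, *Phkb* and *Phkg1*, *Pygm*, *Gbe1*, *Gys1*, *Gyg*, *Pgm2* and *Ppp1r3a*, found by their symbols among the 23997 that each library lists. They were chosen by the difference between the genotypes in these same 6 libraries. Their own differences between genotypes are therefore given as values with errors and without a test. All 9 passed the filter on low values (a mean of at least 0.5 FPKM over the 6 libraries), as did 13359 symbols in all.

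The gastrocnemius is the large mixed-fiber muscle of the calf. The HrasG12V group (mice 2276, 2278 and 2279, n = 3) had the genotype Caggs-Cre+/HrasG12V/+, in which Cre had recombined the floxed *Hras* allele into its activating form. The WT group (mice 2277, 2280 and 2281, n = 3) were littermates of the genotype Caggs-Cre-/HrasflG12V/+, which carried the same floxed allele without Cre. All mice were 21 days old and untreated, and each gave 1 library. Cre came from a promoter that is active throughout the body, so *Hras* was altered in every tissue and not in muscle alone. Because every HrasG12V mouse and no WT mouse carried Cre, effects of Cre and of the allele cannot be told apart. Levels are given as FPKM, a read density corrected for transcript length and for the size of the library, which allows genes of different length to be compared. Fold changes are on the log2(FPKM + 0.1) scale, HrasG12V minus WT.

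When muscle contracts, calcium and adrenaline signals activate phosphorylase kinase, a large enzyme made of regulatory alpha and beta subunits, a catalytic gamma subunit and calmodulin as the delta subunit. Phosphorylase kinase phosphorylates glycogen phosphorylase, which then releases glucose 1-phosphate from the chains. In the opposite direction glycogenin primes a new particle, glycogen synthase extends the chains and the branching enzyme adds the branches. Protein phosphatase 1, brought to glycogen by targeting subunits, activates the synthase and inactivates the kinase and the phosphorylase.

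*Hras* itself was at 16.0 to 58.8 FPKM in HrasG12V and 36.0 to 51.8 FPKM in WT mice, a value that sums both alleles and does not check the genotype. Muscle transcripts such as *Ttn* and *Neb* (151 to 239 and 206 to 367 FPKM) were abundant in all 6 libraries, and 3 liver genes together were at 0.0734 to 0.364 FPKM. The fiber genes *Acta1*, *Myh4* and *Atp2a1* were listed at 0 in all 6 libraries and *Ckm* in 5 of 6, so a 0 in these files can be a failed estimate. None of the 9 glycogen genes was listed at 0. The library of HrasG12V mouse 2276 stood apart. Its FPKM summed to 814013 against 413020 to 547122 in the other 5, and its transcripts shorter than 1000 bases were above the WT mean (median log2 difference 0.78) while those of 6000 bases or more were below it (-0.57). In mice 2278 and 2279 the same medians lay between -0.14 and 0.01. Each result below is given with this in view.

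*Phka1*, the muscle form of the alpha subunit of phosphorylase kinase, had the lowest ratio of HrasG12V to WT among the 9 genes. It was at 83.4, 63.7 and 73.4 FPKM in HrasG12V mice 2276, 2278 and 2279 compared to 187, 171 and 214 FPKM in mice 2277, 2280 and 2281 of the WT group. All 3 HrasG12V mice were low and the groups were far from overlapping. The HrasG12V mean (73.5 ± 9.85 FPKM, SD, n = 3) was 38.6% of the WT mean (190 ± 21.6 FPKM, SD, n = 3). On the log2 scale the difference was -1.38 with a standard error of 0.22. With each mouse left out in turn it stayed between -1.47 and -1.28, and with each library's trend over transcript length removed it was -1.18. The gene lies on chromosome X (102513975 to 102644301, GRCm38), and its longest transcript has 6115 bases.

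*Phkb*, the beta subunit (chromosome 8, 85840853 to 86064251), was at 57.3, 71.7 and 88.4 FPKM in the HrasG12V mice, in the same order, and at 127, 103 and 135 FPKM in the WT mice. The groups did not overlap, and mouse 2276 was the lowest. The log2 fold change was -0.76 (standard error 0.24), -0.60 without mouse 2276 and -0.60 with the length trend removed. *Phkg1*, the catalytic gamma subunit of muscle (chromosome 5, 129863431 to 129879134), was at 282, 155 and 173 FPKM in the HrasG12V mice and at 237, 210 and 301 FPKM in the WT mice. Here mouse 2276 lay within the WT range while mice 2278 and 2279 lay below it. The log2 fold change of -0.33 had a standard error of 0.32. It was -0.59 without mouse 2276, -0.16 without mouse 2278 and -0.18 without WT mouse 2281.

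The 3 subunit genes thus did not keep their proportions. The ratio of *Phka1* to *Phkg1* FPKM, which does not change when a library is multiplied by a single factor, was 0.79, 0.814 and 0.71 in the WT mice and 0.296, 0.412 and 0.423 in the HrasG12V mice. It was lower in every HrasG12V mouse than in every WT mouse. The ratio of *Phkb* to *Phkg1* was 0.448 to 0.536 in the WT mice. Mice 2278 and 2279 lay within that range, at 0.464 and 0.51, and mouse 2276 far below it, at 0.203. *Phka1* and *Phkb* have longer transcripts (6115 and 5351 bases) than *Phkg1* (2374 bases), and in mouse 2276 long transcripts were low across the library. The part of transcript length in these ratios was not tested.

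**Figure D1:**
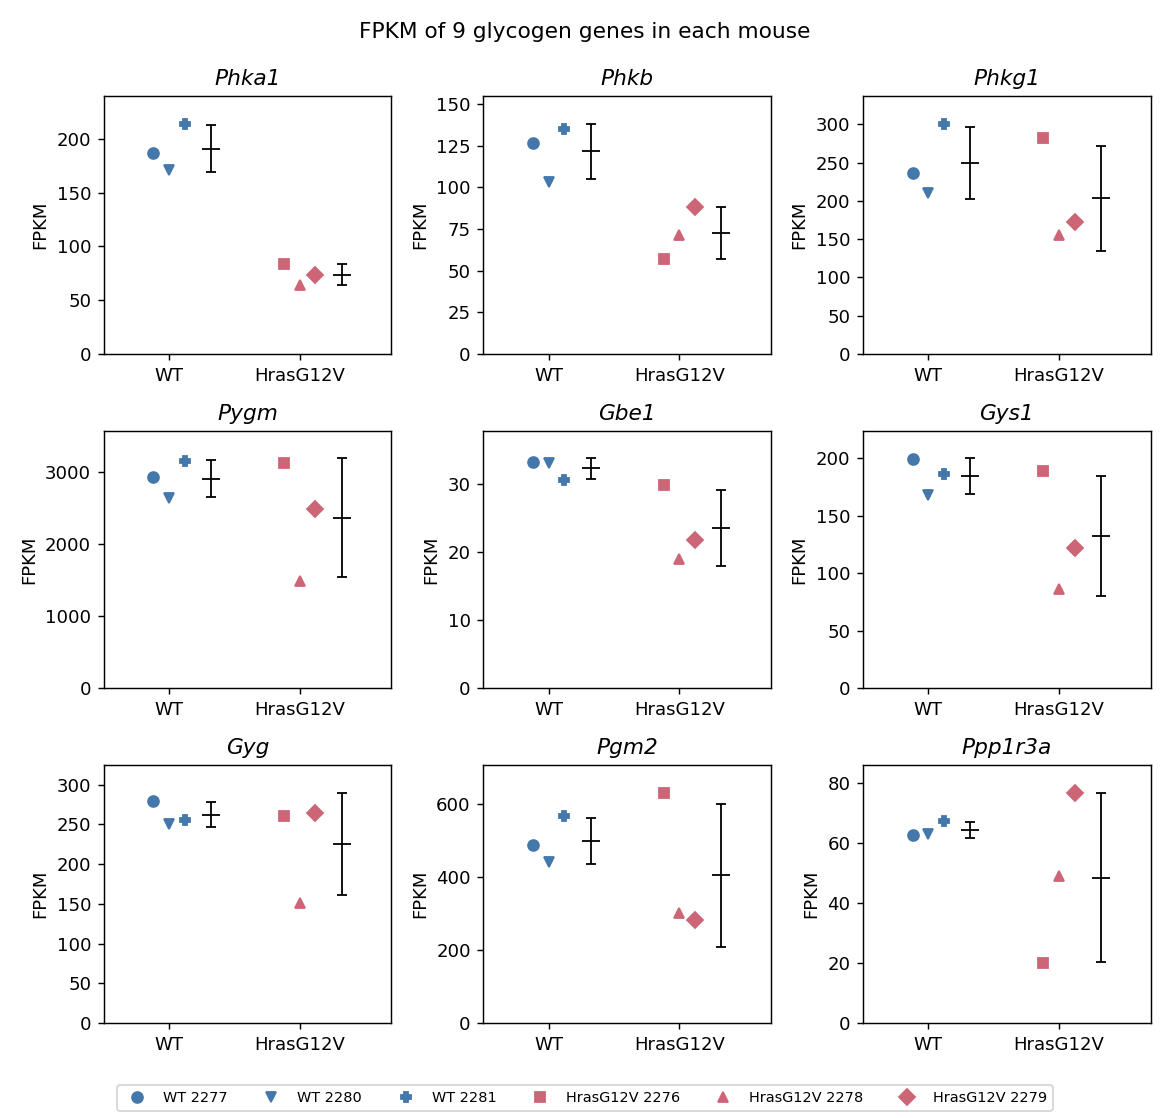
FPKM of the 9 glycogen genes in each mouse, 1 panel per gene with its own axis from 0. Colored points are single mice (3 per genotype), black bars the mean and SD. *Phka1* is at 63.7 to 83.4 FPKM in HrasG12V and 171 to 214 FPKM in WT mice, while for *Pygm*, *Phkg1*, *Gys1* and *Pgm2* mouse 2276 lies at or above the middle of the WT mice.

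*Pygm*, the muscle glycogen phosphorylase that carries out the breakdown itself (chromosome 19, 6384408 to 6398464), was by far the most abundant of the 9, at rank 15 to 22 of all symbols in the 6 libraries. It was at 3128, 1490 and 2485 FPKM in the HrasG12V mice and at 2933, 2645 and 3151 FPKM in the WT mice. Only mice 2278 and 2279 were below the WT range. The log2 fold change was -0.36 (standard error 0.43), and it moved from -0.06 without mouse 2278 to -0.59 without mouse 2276. With quantile normalization it was -0.22. *Pgm2*, a phosphoglucomutase that interconverts glucose 1-phosphate and glucose 6-phosphate, was at 631, 302 and 281 FPKM in the HrasG12V mice and at 488, 442 and 567 FPKM in the WT mice. Mouse 2276 was the highest of all 6 mice and mice 2278 and 2279 the lowest, and the log2 fold change was -0.40 (standard error 0.38). It was -0.77, -0.24 and -0.19 without mouse 2276, 2278 and 2279, respectively. The symbols *Pgm1* and *Pgm2* have been exchanged in mouse nomenclature, and each is a synonym of the other in RefSeq. The files use older symbols, so their *Pgm2* was read as the gene on chromosome 4 (99929451 to 99987294) that is now named *Pgm1*. The files' *Pgm1* was at only 2.03 to 3.84 FPKM.

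Of the genes of synthesis, *Gys1*, the muscle glycogen synthase (chromosome 7, 45434839 to 45456617), was at 189, 86.0 and 122 FPKM in the HrasG12V mice and at 199, 168 and 186 FPKM in the WT mice. Mouse 2276 lay among the WT mice and the other two below them. The log2 fold change was -0.55 (standard error 0.33), -0.85 without mouse 2276 and -0.28 without mouse 2278. *Gbe1*, the branching enzyme (chromosome 16, 70313949 to 70569720), was the least abundant of the 9, at 29.9, 19.1 and 21.8 FPKM in the HrasG12V mice and 33.3, 33.1 and 30.6 FPKM in the WT mice. The groups did not overlap, but mouse 2276 missed the lowest WT mouse by less than 1 FPKM. The log2 fold change was -0.48 (standard error 0.21). *Gyg*, the glycogenin that primes a glycogen particle (chromosome 3, 20122083 to 20155117), was at 261, 151 and 264 FPKM in the HrasG12V mice and at 280, 251 and 256 FPKM in the WT mice. Only mouse 2278 was outside the WT range. Its log2 fold change of -0.26 (standard error 0.30) was 0.0032 without that mouse and -0.40 without mouse 2279.

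*Ppp1r3a*, the muscle subunit that brings protein phosphatase 1 to glycogen (chromosome 6, 14713822 to 14755274), varied most among the HrasG12V mice. It was at 20, 48.8 and 76.4 FPKM in mice 2276, 2278 and 2279 and at 62.6, 63.0 and 67.3 FPKM in the WT mice. One HrasG12V mouse was above all WT mice and the other two below them. The log2 fold change was -0.61 (standard error 0.47) with all mice, -0.07 without mouse 2276 and -1.04 without mouse 2279. With the length trend removed it was -0.39. Its longest transcript has 6965 bases, the longest of the 9.

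Every HrasG12V mouse was below every WT mouse for 3 of the 9 genes (*Phka1*, *Phkb* and *Gbe1*), and for 10.4% of all genes tested. Every HrasG12V mouse was above every WT mouse for 0 of the 9 and for 8.11% of all genes tested. Without mouse 2276 the first count was 7 of 9, against 28.3% of all genes, *Gyg* and *Ppp1r3a* being the 2 that still overlapped. The 9 genes were picked on this contrast, so nothing is read from these counts. Over the 9 genes the median log2 fold change was -0.48, and over all genes tested it was -0.03. In single mice the median member lay at -0.01 in mouse 2276, -0.76 in mouse 2278 and -0.51 in mouse 2279, relative to the WT mean. In mouse 2278 all 9 genes were below the lowest WT mouse. In mouse 2279 this held for 7 and in mouse 2276 for 4.

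The order of the HrasG12V mice depended on how libraries were scaled. When all libraries were set to an equal FPKM sum, the median of the 9 genes was -0.65, -0.48 and -0.17 in mice 2276, 2278 and 2279. These values by mouse were computed after the data were seen. The median of all genes tested then also moved, to -0.57, 0.19 and 0.28. Relative to all genes, mouse 2276 thus had a small difference and mice 2278 and 2279 a larger one under either scaling. With the trend over transcript length removed, the medians were -0.03, -0.77 and -0.49. In mouse 2276 this removal moved the 3 longest members toward the WT mean, *Phka1* from -1.18 to -0.71, *Phkb* from -1.08 to -0.67 and *Ppp1r3a* from -1.68 to -1.15.

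**Figure D2:**
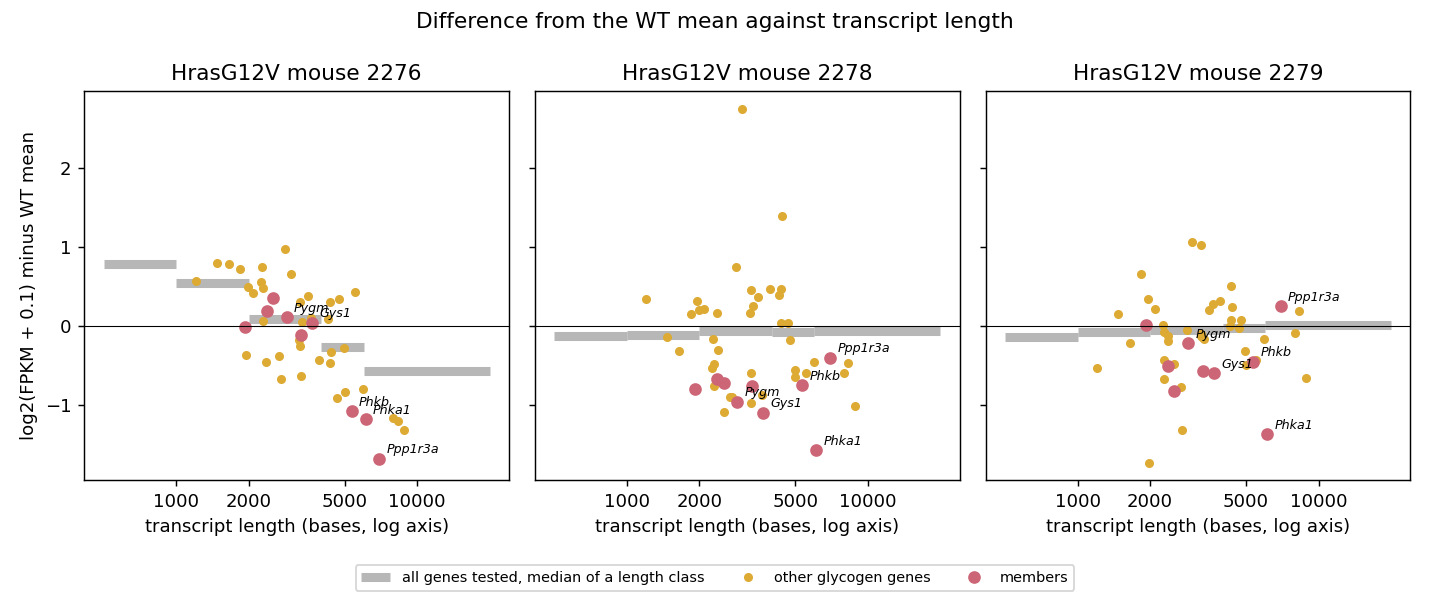
Log2(FPKM + 0.1) minus the WT mean against transcript length (log axis, bases) in each HrasG12V mouse, for the 9 chosen genes (red, "members") and 39 other glycogen genes (yellow). Gray bars are medians of all genes tested in 5 length classes, which fall from 0.78 to -0.57 in mouse 2276 and stay between -0.14 and 0.01 in the other two. *Phka1* lies below the gray bar of its class in all 3 mice.

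Transcripts of other cells also differed between the mice. The summed FPKM of 5 B cell genes was 77.2 and 61.0 in mice 2278 and 2279 and 0.614 to 1.35 in the other 4, and that of 5 T cell genes was 29.5 and 36.7 against 0.638 to 1.14. The 5 neutrophil genes summed to 19.7, 130 and 50.8 FPKM in mice 2276, 2278 and 2279 and to 0.716 to 3.57 in WT mice. Adipocyte genes were at 107 and 77.9 FPKM in mice 2278 and 2279 against 6.68 to 34.8 in the other 4. The 4 Schwann cell genes were also highest in these 2 mice, at 514 and 615 FPKM against 133 to 370 FPKM. The 4 endothelial genes summed to 94.5 to 111 FPKM in HrasG12V and 125 to 151 FPKM in WT mice, and *Cdh5* was below every WT mouse in all HrasG12V mice. The 4 macrophage genes listed were at 41.1 to 66.9 FPKM in HrasG12V and 35.2 to 39.6 FPKM in WT mice. The 5 fibroblast genes summed to 646, 2513 and 749 FPKM in mice 2276, 2278 and 2279 and to 1401 to 2907 FPKM in WT mice. Mice 2278 and 2279 were the ones with low *Pygm*, *Gys1*, *Phkg1* and *Pgm2*, and the part of other cells in this was not tested. *Phka1* was also low in mouse 2276, in which the B and T cell genes summed to 1.35 and 1.14 FPKM. The same mouse had a sum of neutrophil genes above the WT mice, given above. The 4 erythroid genes summed to 763, 506 and 221 FPKM in mice 2276, 2278 and 2279 and to 243 to 276 FPKM in WT mice, and the part of these cells was not tested either. Of 8 general muscle fiber genes, 7 could be tested, and their median log2 fold change was -0.46. By mouse their median lay at -0.45, -0.66 and -0.32 in mice 2276, 2278 and 2279, where the 9 glycogen genes lay at -0.01, -0.76 and -0.51. For 3 of them, *Ttn*, *Neb* and *Cacna1s*, every HrasG12V mouse was below every WT mouse, with HrasG12V means at 72.8%, 66.5% and 64.3% of WT, a pattern shown by 10.4% of all genes tested. The groups overlapped for the other 4, *Ryr1*, *Mb*, *Des* and *Ckm*. *Des* was at 117% of WT and *Mb* at 96.5%, and the value of *Ckm* rests on the single library in which it was not listed at 0. Transcripts of *Ttn*, *Neb*, *Cacna1s* and *Ryr1* have 6251 to 106824 bases. Across the library of mouse 2276, transcripts of 6000 bases or more had a median of -0.57, and those of 2000 to 4000 bases 0.09. The part of transcript length in these values was not tested. In bulk muscle, fewer fibers and less RNA per fiber cannot be told apart.

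Transcripts of fiber-type genes varied as well, and fiber composition itself was not measured here. By ATPase staining of older mice, the paper reported no significant alteration of fiber types in gastrocnemius muscle. The 7 slow fiber genes summed to 1239, 1232 and 45.6 FPKM in WT mice 2277, 2280 and 2281 and to 3298, 1026 and 2291 FPKM in HrasG12V mice 2276, 2278 and 2279. WT mouse 2281, nearly without slow fiber transcripts, had the highest *Phka1*, *Phkb*, *Phkg1*, *Pygm*, *Pgm2* and *Ppp1r3a* of the 3 WT mice. It also had the lowest *Gbe1* and the middle value of *Gys1* and *Gyg*. The 10 fast fiber genes summed to 112202 FPKM in mouse 2276, above the 55010 to 75987 FPKM of the WT mice, and to 52854 and 42764 FPKM in mice 2278 and 2279, below them. Of these genes 8 were tested, all 8 with overlapping groups and a median log2 fold change of 0.02. *Tnni2*, a fast troponin, was at 17112 FPKM in mouse 2276 against 6376 to 7487 FPKM in WT mice, while *Actn3*, a fast fiber actinin, was at 3264 FPKM there against 2427 to 3322 FPKM. *Tnnt3*, another fast troponin, was listed at 0 in mouse 2276 alone, and *Myh1*, a fast myosin, in WT mice 2277 and 2280. With *Myh4* and *Atp2a1* at 0 throughout, the fast fiber sums are therefore incomplete. *Mylpf*, *Pvalb*, *Tnnc2* and *Tnni2*, the highest of the fast fiber genes in mouse 2276, have transcripts of 700 to 977 bases. The slow fiber genes *Myl2*, *Myl3* and *Tnnc1* have 889, 937 and 721. Transcripts shorter than 1000 bases were above the WT mean across that library (median log2 difference 0.78). The part of transcript length in these sums was not tested, nor was that of fiber type in the values of the glycogen genes.

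Muscle uses its own isoforms of several of these enzymes, and the other isoforms were compared beside them. *Pygm* made up 99.1% to 99.9% of the FPKM of the 3 phosphorylase genes in every mouse, and *Gys1* 99.7% to 100% of that of both synthase genes. For the alpha subunit, *Phka1* made up 98.1% to 98.7% in the WT mice and 95.8%, 93.9% and 94.5% in the HrasG12V mice. *Phka2*, the alpha subunit of liver, was at 3.69, 4.16 and 4.25 FPKM in the HrasG12V mice against 2.85, 3.28 and 2.82 FPKM in WT (a log2 difference of 0.42, standard error 0.15, limma unadjusted p = 0.0252, adjusted p = 0.455). *Phkg2*, the gamma subunit of liver and testis, was at 5.23, 3.49 and 5.01 against 3.35, 3.16 and 2.89 FPKM (log2 difference 0.51, standard error 0.20, limma unadjusted p = 0.0355). *Pygl*, the liver phosphorylase, was at 1.72, 7.65 and 2.30 against 1.28, 1.35 and 0.671 FPKM (log2 difference 1.49, standard error 0.57, limma unadjusted p = 0.0372). Mouse 2278, the highest for *Pygl*, also had the highest sums of the neutrophil, adipocyte, B cell and macrophage genes. The highest sums of the T cell and Schwann cell genes were in mouse 2279. The part of other cells in the *Pygl* values was not tested. *Pygb*, the brain phosphorylase, was at 3.03 to 5.73 FPKM in HrasG12V and 3.78 to 4.73 FPKM in WT mice. *Gys2*, the liver synthase, was at most 0.275 FPKM and was not tested.

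A list of 41 other genes of glycogen metabolism, written with earlier results of these data known but not picked for how the genes moved, was tested in the same limma fit over 13359 genes. Of these, 39 passed the filter on low values (*Gys2* and *Ppp1r3g* did not). At an unadjusted limma p below 0.05, 5 of the 39 were lower in HrasG12V muscle, against 4.99% of all genes tested, and 4 of the 39 were higher, against 5.18%. After Benjamini-Hochberg adjustment 0 of the 39 had a limma p below 0.05, against 0.0599% of all genes tested (8 genes). The median log2 fold change of the 39 genes was -0.09, compared to -0.03 over all genes.

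All 5 partner enzymes of the pathway had log2 fold changes below 0, as had 53.4% of all genes tested, and 2 of them had an unadjusted limma p below 0.05. *Ugp2*, which makes the UDP-glucose that glycogen synthase uses, was at 218, 151 and 166 FPKM in the HrasG12V mice against 338, 260 and 258 FPKM in WT (a log2 difference of -0.68, standard error 0.26, limma unadjusted p = 0.0365, adjusted p = 0.481). *Epm2a*, the glycogen phosphatase laforin, was at 11.8, 9.29 and 16.7 against 19.8, 17.1 and 18.4 FPKM (log2 difference -0.58, standard error 0.24, limma unadjusted p = 0.0451). *Gaa*, the lysosomal glucosidase, *Nhlrc1*, the laforin partner malin, and *Stbd1*, which tethers glycogen to membranes, had log2 fold changes of -0.16, -0.38 and -0.35 that did not pass. *Gaa* was at 0.19 without mouse 2278 and *Stbd1* at 0.35 without mouse 2279.

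Among the subunits of protein phosphatase 1, *Ppp1r3c*, another glycogen-targeting subunit, was at 233, 198 and 149 FPKM in the HrasG12V mice and at 267, 391 and 486 FPKM in the WT mice. Every HrasG12V mouse was below every WT mouse, with a wide spread in both groups (log2 fold change -0.96, standard error 0.33, limma unadjusted p = 0.0231, adjusted p = 0.454). The other 7 of the 8 subunits tested, *Ppp1r3b*, *Ppp1r3d*, *Ppp1r3e*, *Ppp1r3f* and the 3 catalytic genes, did not pass, with log2 fold changes from -0.47 (*Ppp1cb*) to 0.43 (*Ppp1r3b*). Of 13 genes of kinases and their subunits that act on the pathway, 1 passed. *Prkab2*, a beta subunit of AMP-activated protein kinase that binds glycogen, was at 50.3, 57.7 and 63.5 against 85.2, 75.6 and 112 FPKM (-0.65, standard error 0.23, limma unadjusted p = 0.0246). The calmodulin genes *Calm2* and *Calm3*, for the delta subunit of phosphorylase kinase, did not pass, with log2 fold changes of 0.12 and -0.22. With 1 mouse left out these ran from -0.10 (without mouse 2276) to 0.45 (without mouse 2279) for *Calm2* and from -0.57 (without mouse 2276) to -0.0024 (without mouse 2279) for *Calm3*.

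*Pgm2l1*, a relative of the phosphoglucomutases that makes glucose 1,6-bisphosphate, was at 2.77, 3.46 and 4.45 against 7.20, 6.49 and 7.55 FPKM (-1.0, standard error 0.20, limma unadjusted p = 0.00188, adjusted p = 0.307). For glucose entry, the insulin-regulated transporter *Slc2a4* was at 264, 96.9 and 148 against 215, 181 and 225 FPKM (-0.41, standard error 0.39, limma unadjusted p = 0.334). The value was -0.78 without mouse 2276 and -0.06 without mouse 2278. The transporter *Slc2a1* was at 4.49, 5.06 and 7.49 against 3.54, 3.64 and 3.73 FPKM (0.59, standard error 0.21, limma unadjusted p = 0.0277). With each mouse left out in turn its log2 fold change ran from 0.38 to 0.74. The hexokinases *Hk1* and *Hk2* did not pass (0.16 and -0.20), and with each mouse left out they ran from 0.05 to 0.24 and from -0.51 to -0.002. Of the 9 genes past the unadjusted p, *Pgm2l1* was the only one whose p stayed below 0.05 with each of the 6 mice left out in turn. Without WT mouse 2277, 2280 or 2281, 2, 3 and 1 of the 9 calls were kept. Without HrasG12V mouse 2276, 2278 or 2279 there were 7, 5 and 4, the 2 lost without mouse 2276 being *Phkg2* and *Epm2a*. No sign of these 9 changed in any of the sets. Of the 30 genes that did not pass, 16 changed sign in at least 1 set, a count made after the data were seen.

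**Figure D3:**
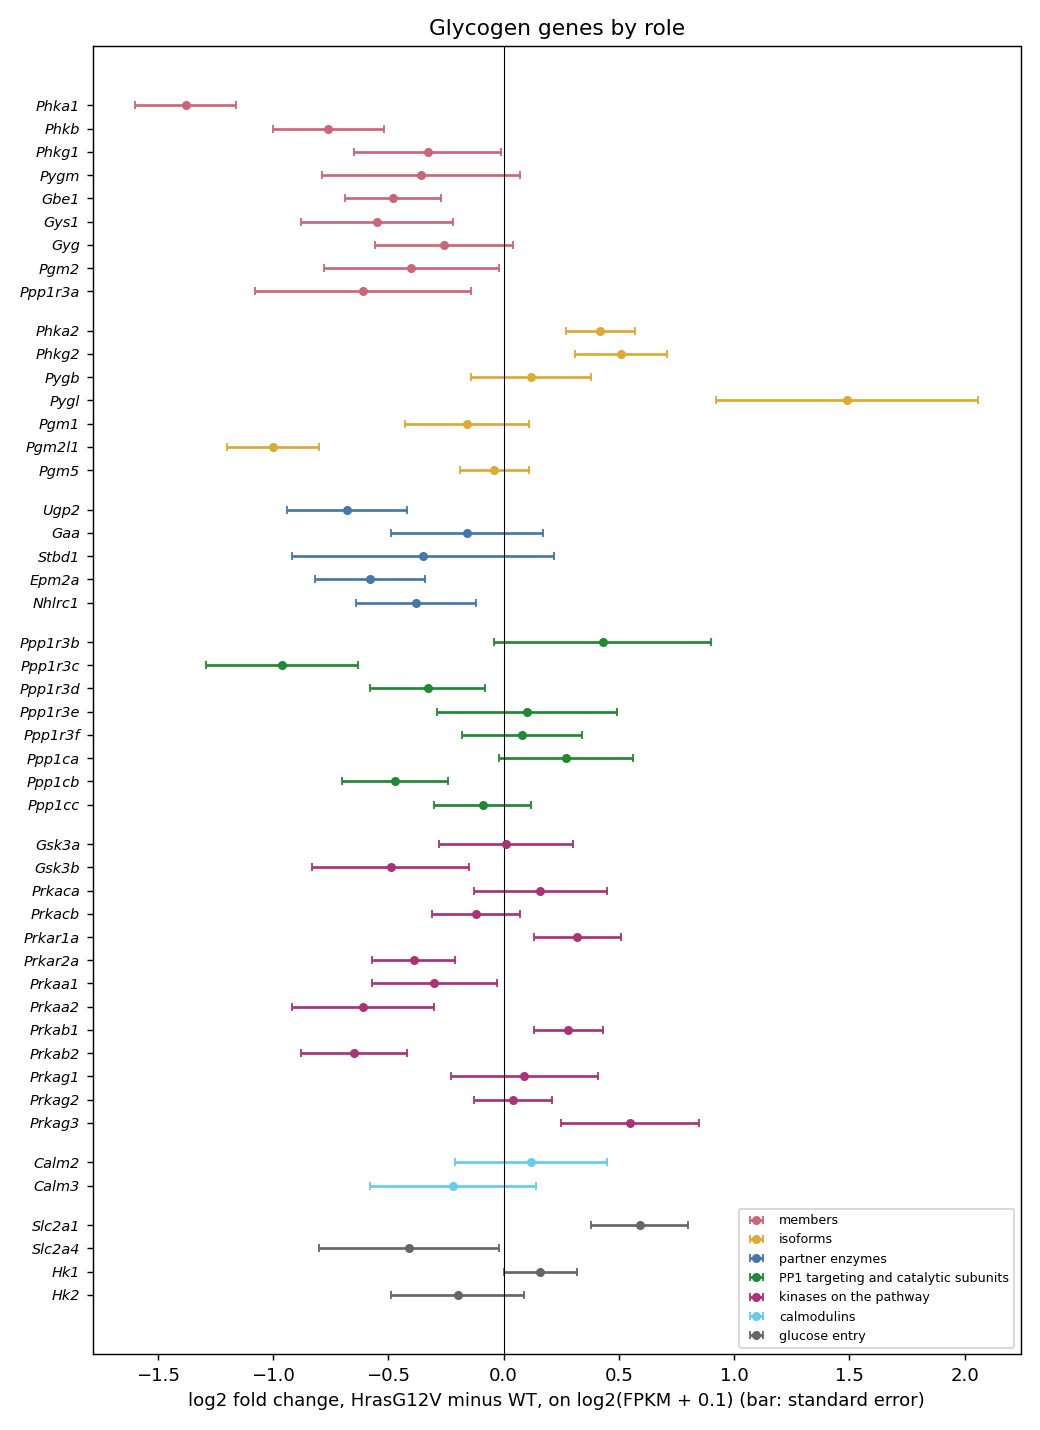
Log2 fold change (HrasG12V minus WT, on log2(FPKM + 0.1)) of the 9 chosen genes ("members", described without a test) and of 39 other glycogen genes grouped by role. Points are limma estimates from 3 mice per genotype and bars their standard errors; *Phka1* (-1.38) is the lowest and *Pygl* (1.49) the highest.

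Ratios within each mouse also gave the balance of the other enzymes. The ratio of *Pygm* to *Gys1*, of breakdown to synthesis, was 14.7 to 17.0 in the WT mice and 16.5, 17.3 and 20.4 in the HrasG12V mice, so that the ranges overlapped. The ratio of *Gyg* to *Gys1* was 1.38 to 1.49 in the WT mice and 1.38, 1.75 and 2.17 in the HrasG12V mice. Mouse 2276 had the value of the lowest WT mouse, and mice 2278 and 2279 were above all of them. The ratio of *Gbe1* to *Gys1* was 0.165 to 0.196 in the WT mice and 0.158 to 0.222 in the HrasG12V mice.

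**Figure D4:**
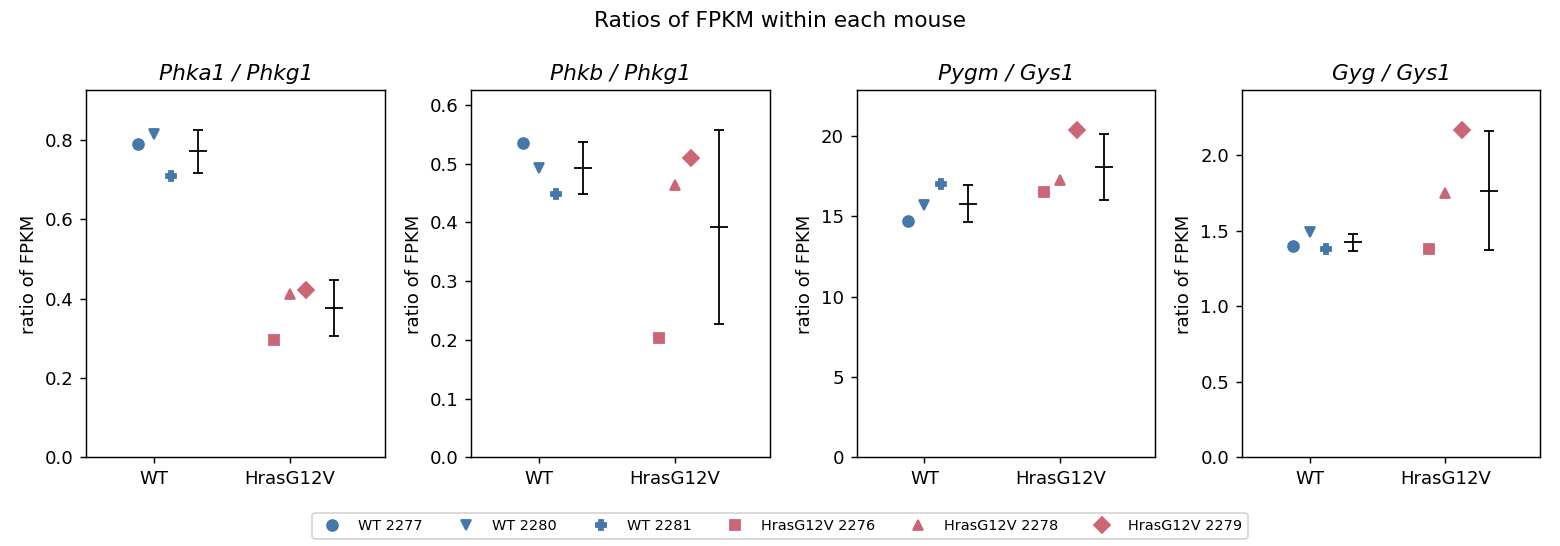
Ratios of FPKM within each mouse, with the axis of each panel starting at 0. Colored points are single mice and black bars the mean and SD (n = 3 per genotype). *Phka1* over *Phkg1* is at 0.296 to 0.423 in HrasG12V and 0.71 to 0.814 in WT mice, while for *Phkb* over *Phkg1* mouse 2276 alone is far below the WT mice and for *Pygm* over *Gys1* the ranges overlap.

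Glycolytic enzymes, which take up the glucose 6-phosphate that glycogen yields, were described beside them. All 10 had log2 fold changes below 0, as had 53.4% of all genes tested, from -0.52 to -0.09 with a median of -0.40, and 0 of the 10 had an unadjusted limma p below 0.05 or groups that did not overlap. These values depended on single mice, which were left out in turn after the data were seen. Without mouse 2276 the median was -0.85 and 9 of the 10 (all but *Gpi1*) were lower at an unadjusted limma p below 0.05, against 17.4% of all genes, and without any other mouse 0 were. *Gpi1* and *Gapdh* were above 0 without mouse 2278, *Tpi1*, *Gapdh* and *Pgam2* without mouse 2279, and *Gapdh* with quantile normalization (0.05). Their median difference from the WT mean was 0.60 in mouse 2276 and -0.73 and -0.90 in mice 2278 and 2279. Several have short transcripts, such as *Aldoa* (1549 bases) and *Gapdh* (1420 bases). Across the library of mouse 2276, transcripts of 1000 to 2000 bases had a median of 0.54. With the length trend removed, the median log2 fold change of the 10 was -0.53. The part of transcript length in the values by mouse was not tested.

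The genes most like the median of the 9 were sought among 12169 other genes with a mean of at least 1 FPKM, by the root mean square difference of log2 values centered on the WT mean over the 6 libraries. The closest were *D17Wsu92e* (0.0272), *Cdk16* (0.0408), *Hgsnat* (0.0464) and *Mybpc2* (0.0492), the last encoding myosin-binding protein C of fast fibers. They were followed by *0610009B22Rik*, *Mfn2*, *Myom2*, *Tmem201*, *Hfe2* and *Zfp112*, at 0.0519 to 0.0655. *Mybpc2* was at 1905 FPKM in mouse 2276 and 1779.5 to 2153 FPKM in the WT mice. By the same measure *Gbe1* (0.117), *Phkg1* (0.122) and *Pygm* (0.15) were the members closest to their own median, and *Ppp1r3a* (0.766) and *Phka1* (0.684) the farthest.

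The start regions of the 9 genes were read from RefSeq (GRCm38.p6) over the 250 bases before the start that its promoter table uses, to show which letters the promoters of genes with unlike patterns hold. The E-box CAGCTG, a form bound by the myogenic factors MyoD and myogenin, was present in 4 of the 9 (*Phka1*, *Pygm*, *Gys1* and *Ppp1r3a*) and in 13.0% of 32851 windows of that length. The motif reads the same on both strands. For *Phka1*, *Phkb*, *Phkg1* and *Gyg* that start lies within the gene's annotated span, so part of the window is inside the gene, and the stretch of *Phka1* printed here lies within its span. The letters CATTCC, on either strand, were found in 1 (*Pgm2*) and in 12.6% of all windows. TATAAA was found in 2 (*Pgm2* and *Ppp1r3a*) and in 12.4%. A MEF2 motif was found in 1 (*Ppp1r3a*) and in 2.92%, and it overlaps a TATAAA match on the other strand. The stretches that hold the E-boxes are given 5′ to 3′ on the strand of the gene, with the E-box in capitals and, in *Ppp1r3a*, also the MEF2 motif, which comes first. That of *Phka1* is chrX:102644267-102644296 (minus strand), those of *Pygm* chr19:6384218-6384267 and chr19:6384368-6384407 (plus), that of *Gys1* chr7:45434609-45434658 (plus) and that of *Ppp1r3a* chr6:14755275-14755404 (minus).
Phka1: gggcgtagcgcgCAGCTGcaggacccacgc
Pygm, distal: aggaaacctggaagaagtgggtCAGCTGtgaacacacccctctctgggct
Pygm, proximal: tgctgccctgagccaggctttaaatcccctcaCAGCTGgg
Gys1: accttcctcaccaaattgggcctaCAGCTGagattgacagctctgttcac
Ppp1r3a: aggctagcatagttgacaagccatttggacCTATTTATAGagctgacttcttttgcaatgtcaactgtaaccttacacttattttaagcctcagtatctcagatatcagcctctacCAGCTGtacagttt

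The genes with an E-box included *Phka1* and *Ppp1r3a*, which were farthest from the common pattern, and *Pygm* and *Gys1*, which were close to it. *Phkb*, *Phkg1*, *Gbe1* and *Gyg* held none of the 4 motifs in this window. A match is a description of the letters and not of binding.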

How the data were processed

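Stranded mRNA libraries of 6 gastrocnemius muscles, 1 per mouse, were sequenced as single-end reads. Per the labels and the paper's methods, the authors used bcl2fastq, TopHat, Cufflinks and Cuffnorm with GRCm38 (mm10). The deposited values are FPKM per gene symbol, scaled between libraries by Cuffnorm. Their versions, and the annotation used, were not given in the sources used here. The paper's methods give an approximate number of reads per sample, but not the exact number for each library. Among 2101 low genes, the ratios between libraries had no common step (at most 1.71% of genes in 1 interval). The exact depth of each library therefore stayed unknown, and models made for read counts were not applied. Precision rests on the spread between mice.

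From the deposited FPKM, log2(FPKM + 0.1) was computed for genes with a mean of at least 0.5 FPKM. Genotypes were compared with limma 3.58.1 (R 4.3.3, trend over abundance, no covariate, Benjamini-Hochberg adjustment), checked on simulated data. The limit on p was 0.05. The members and gene lists were chosen with earlier results of these data known. Genes named are the 9 members, the other glycogen genes past the unadjusted p, paralogs and partners of members, and the 10 genes most like the member median. A result on 2 genes of the glycogen list is not reported here, and they are left out of its counts. Genes named beyond these, and the cell type values, were chosen after their values were seen. Symbols were matched to RefSeq (GRCm38.p6), 23839 of 23997, of which 1339 matched by a synonym. Transcript lengths are of the longest GENCODE vM21 transcript, known for 99.2% of genes tested. Promoter windows were matched for all 9 members. Alternatives were 2 pseudocounts, 2 filters, 3 scalings, no moderation, array weights, removal of the length trend and leaving out each mouse. Tables were handled with numpy 2.4.6 and pandas 2.3.3 and plotted with matplotlib 3.10.9 (Python 3.11.15).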

Additional observations from a re-analysis of the deposited data

How the results depend on the processing

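The exact read number of each library is unknown, and the spread of 3 mice per genotype limits every value. Sex, litter and batch of the mice are not in the labels. No paired analysis was possible because the litter of each mouse is not given. The median log2 fold change of the 9 genes was below 0 under all 15 alternatives, from -0.63 with array weights to -0.28 without HrasG12V mouse 2278. Array weights also moved *Gyg* to -0.44, *Gys1* to -0.84, *Pgm2* to -0.67, *Phkg1* to -0.51, *Pygm* to -0.59 and *Ppp1r3a* to -0.19. Among the 9 genes, the only sign to change was that of *Gyg*, which ran from -0.40 to 0.0032 with 1 mouse left out (0.0032 without HrasG12V mouse 2278). *Phka1* was at -1.18 with the length trend removed. The count of the 9 genes below every WT mouse, taken without each mouse after the data were seen, ran from 3 to 7.

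The number of other glycogen genes lower at the unadjusted p was 3 with quantile normalization, 2 with the same total FPKM and 9 with array weights, and 1 (without WT mouse 2281) to 10 (without HrasG12V mouse 2276) with 1 mouse left out. The number higher was 0 with the same total and 2 without moderation, and 0 to 5 with 1 mouse left out. Over all genes, 333 were lower and 379 higher with the same total, and 1645 and 1397 with array weights. Leaving out 1 mouse gave 310 (without WT mouse 2281) to 2322 (without mouse 2276) lower and 296 to 1657 higher. The number past the adjusted p was 5 with a pseudocount of 1, 1 without moderation and 572 with array weights, and 7 to 1291 with 1 mouse left out (14 without WT mouse 2281 and 1291 without mouse 2276). The cause of these moves was not tested.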
